A study of Mus musculus with 19 samples.

Results

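The ID factors and BMP-SMAD targets are 10 genes: the inhibitors of DNA binding Id1, Id2, Id3 and Id4, the SMAD genes Smad6, Smad7 and Smad9, the hepcidin gene Hamp, the transcription factor gene Atoh8 and the ligand gene Bmp2. They were chosen by name, and each was represented by its brightest probe set with a single gene symbol. All 10 had such a probe set among the 18193 genes on the array. A gene was tested where 4 or more arrays read above log2 4, which 8 of the members did and Id4 and Smad9 did not.

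Livers of 19 male C57BL/6 mice, 10 to 12 weeks old, were profiled on Affymetrix arrays 2 h after 85% of the liver was removed. The groups were 5 wild-type mice (WT), 6 Ager null mice (Ager-null), 4 Myd88 null mice (Myd88-null) and 4 mice null for both Ager and Myd88 (double-null). Resection was common to all groups, no unresected liver was analysed here, and the labels do not say how the null alleles were made. Ager encodes RAGE, a receptor for ligands released by damaged cells, and Myd88 encodes the adaptor of most Toll-like receptors and of the IL-1 receptor. The design asks what loss of either gene or both does to the early response of the remnant.

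Bone morphogenetic proteins (BMPs) bind paired receptor kinases that phosphorylate SMAD1, SMAD5 and SMAD9, which join SMAD4 and switch on target genes in the nucleus. Among the targets are the ID genes, whose products bind and block basic helix-loop-helix (bHLH) factors, and Smad6 and Smad7, whose products inhibit the same receptors. In the liver the pathway is best known for iron control: endothelial cells supply BMP2 and BMP6, and hepatocytes answer with hepcidin, which is also induced by IL-6 through STAT3. ID1 in liver endothelial cells has been tied to the release of growth factors after partial hepatectomy.

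Of 11 hepatocyte markers, 10 exceeded log2 4 on all arrays, with Alb at 15.1 ± 0.08 (log2, SD, n = 5) in WT. Ass1 was near that cutoff, at 4.13 ± 0.58 in WT. Since the extraction text of the labels speaks of glomeruli, kidney genes were read too: 0 of 9 exceeded log2 4 on every array. The podocyte gene Nphs1 was at 2.25 ± 0.07 in WT (n = 5). Podxl, of the same list, was near the cutoff, with means of 4.07 in WT, 3.82 in Ager-null, 4.48 in Myd88-null and 4.22 in double-null. Myd88 lay between 2.60 and 3.86 in the groups without it and between 5.24 and 6.39 in the others, while Ager was under log2 4 in every group, so its probe set checks nothing. Myd88-null replicate 4 stood apart, with a median correlation to the other arrays of 0.965 against at least 0.979 for the rest, and estimates for Id1, Smad6, Hamp, Atoh8, Bmp2 and the called pathway genes that rest on it are also given without it. The sample descriptions carry an S number of unstated meaning. All 6 Ager-null arrays have S numbers from 13 to 20, where WT has 1 array (replicate 5), Myd88-null has 1 (replicate 4) and double-null has 0.

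The promoters of 7 members were found in a RefSeq table of mouse assembly GRCm38.p6, and the 250 bases before the transcript start were searched on both strands. Id1, Smad7 and Bmp2 had no entry there, so their promoters were not searched. The motifs were GGCGCC and GGAGCC, which SMAD1 and SMAD5 are known to bind, CAGACA, which holds the short SMAD box, and the STAT element TTCNNNGAA. The 3 shown are those of hepcidin, the main hepatic output of the pathway, and of the ID genes Id2 and Id3. Capitals mark the matches, and sequences run 5′ to 3′ on the gene's strand. Hamp lies on the minus strand at chr7:30944030-30944279, Id2 on the minus strand at chr12:25096093-25096342 and Id3 on the plus strand at chr4:136143572-136143821.
Hamp: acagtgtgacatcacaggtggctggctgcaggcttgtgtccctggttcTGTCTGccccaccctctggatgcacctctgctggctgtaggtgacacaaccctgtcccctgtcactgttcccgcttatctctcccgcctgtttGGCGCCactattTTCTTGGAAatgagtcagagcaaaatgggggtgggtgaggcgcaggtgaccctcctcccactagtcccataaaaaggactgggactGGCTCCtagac
Id2: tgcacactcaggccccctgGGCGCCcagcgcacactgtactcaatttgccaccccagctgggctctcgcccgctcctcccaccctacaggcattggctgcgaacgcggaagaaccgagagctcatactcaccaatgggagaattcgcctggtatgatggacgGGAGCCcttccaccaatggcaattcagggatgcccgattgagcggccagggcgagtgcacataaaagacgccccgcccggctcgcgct
Id3: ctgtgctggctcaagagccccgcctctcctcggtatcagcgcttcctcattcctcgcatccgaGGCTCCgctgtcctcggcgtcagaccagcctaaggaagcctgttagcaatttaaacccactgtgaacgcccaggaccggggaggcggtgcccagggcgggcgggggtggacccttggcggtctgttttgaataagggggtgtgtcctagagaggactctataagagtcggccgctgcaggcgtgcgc
The Hamp promoter held all 4 motifs. Its GGCGCC began 109 bases before the start and its STAT element 97 bases before it. GGCGCC was also found before Id2, Id4 and Smad9, and it occurs in 9.59% of the 32851 promoters in the table. GGAGCC was found before Id2, Id3, Id4, Smad6, Smad9 and Hamp and occurs in 26.0% of them. CAGACA occurs in 17.1% and TTCNNNGAA in 7.02%, and among the members both were found before Hamp alone. The Atoh8 promoter held none of the 4 in this window.

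Across the groups, 1 of the 8 tested members passed in 1 comparison: Id1 was higher in double-null than in Ager-null livers. Groups were compared with limma on the log2 values, and a gene was called at a Benjamini-Hochberg adjusted p under 0.05 over all 8515 tested genes. In the other 6 comparisons, which include the interaction, 0 members were called in limma. At an unadjusted p under 0.05 there were 0 of 8 members for Ager-null against WT, where 21.6% of all tested genes were. There was 1 member for Myd88-null against WT (Smad6, with 19.6% of all genes), 1 for double-null against WT (Id1, with 8.57%), 1 for Myd88-null against Ager-null (Smad6, with 15.9%) and 1 for double-null against Ager-null (Id1, with 22.7%). Id1 and Smad6 were the 2 members for double-null against Myd88-null (16.1% of all genes) and for the interaction (27.2%). No count exceeded 2 of 8 members, so these shares each rest on at most a pair of genes. Smad6 met the filter only through Myd88-null, the group in which it was high, so its place in these counts supports nothing. Levels are log2 units of a probe set and are compared between groups, not between genes.

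Id1 encodes the member of the family best known as a direct BMP target in endothelial cells. Its level was 7.05, 6.88, 5.80, 6.81 and 8.01 in the 5 WT livers. In Ager-null it ran from 5.28 to 7.01 with a median of 6.43. The 4 Myd88-null livers read 6.92, 7.10, 6.998 and 5.90, and the 4 double-null livers 7.34, 7.77, 8.10 and 7.86. Every double-null array was thus above every array of both single deletions, while the WT range reached from below the Myd88-null arrays to within the double-null range. In order of group means, Ager-null stood at 6.31 ± 0.60 (SD, n = 6), Myd88-null at 6.73 ± 0.56 (n = 4), WT at 6.91 ± 0.79 (n = 5) and double-null at 7.77 ± 0.32 (n = 4), and no neighbours in this order passed the test between them.

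Double-null exceeded Ager-null in Id1 by 1.46 ± 0.36 (log2, SE; 95% confidence interval 0.70 to 2.22), a 2.75-fold difference, with a limma adjusted p of 0.0466. Of all tested genes, 2.44% were called in this comparison, and the groups did not overlap for 8.39%. With 1 of 8 members on each count, the members' share rests on a single gene. The estimate stayed between 1.25 and 1.64, but the call was lost in 5 of 11 changes of processing or fit and in 14 of 19 fits without 1 array. The fits that kept it were those without WT replicate 3, WT replicate 5, Ager-null replicate 2, Myd88-null replicate 1 or Myd88-null replicate 4, and the adjusted p was highest, at 0.169, without double-null replicate 3. It was also lost with the S range as a block (adjusted p = 0.217). Ager-null and double-null arrays never fall in the same S range, so for this difference the S range and the genotype cannot be told apart directly.

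**Figure D1:**
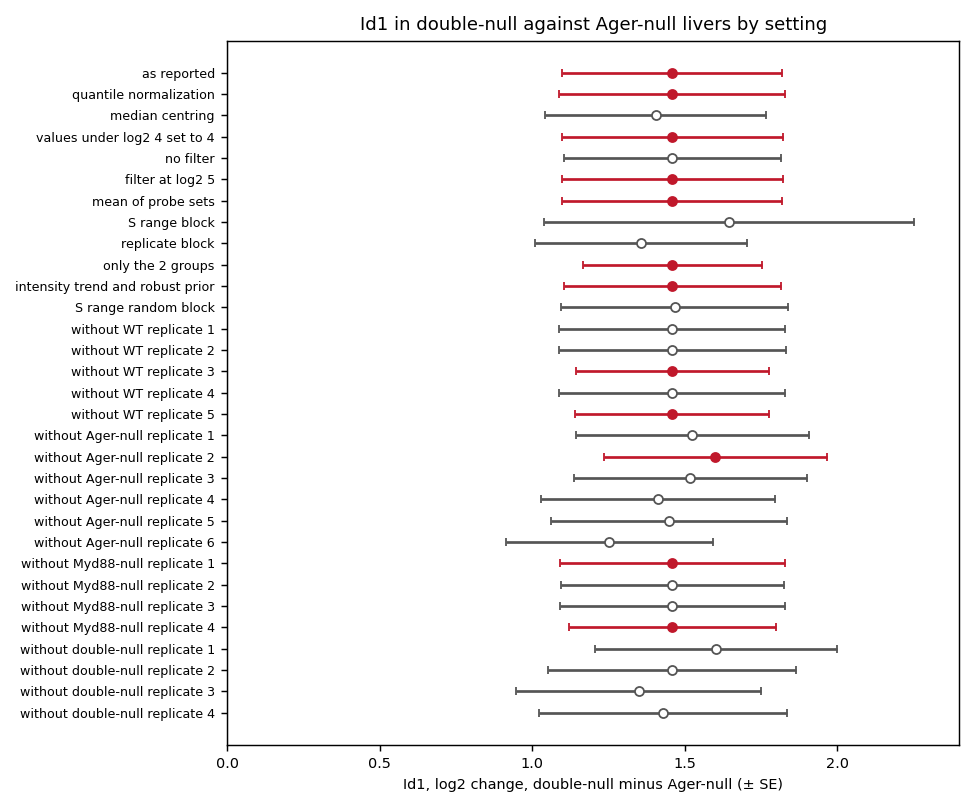
Id1 in double-null minus Ager-null livers (log2 change ± SE, horizontal axis) under each setting and without each array. Filled red points passed an adjusted p of 0.05 and open points did not: the estimate stays at 1.25 or above in every fit, while the call comes and goes.

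In the other comparisons Id1 missed the threshold. Against WT it was at 0.86 ± 0.37 in double-null (95% confidence interval 0.07 to 1.65, limma adjusted p = 0.534), at -0.60 ± 0.34 in Ager-null (-1.31 to 0.11, adjusted p = 0.314) and at -0.18 ± 0.37 in Myd88-null (-0.97 to 0.61, adjusted p = 0.816). Double-null against Myd88-null gave 1.04 ± 0.40 (adjusted p = 0.253), with no overlap of the groups, and 0.77 (adjusted p = 0.694) without Myd88-null replicate 4. Without that array Myd88-null minus WT in Id1 was 0.09 (adjusted p = 0.956). The interaction, which is the effect of Myd88 loss without Ager minus that with Ager, was 1.64 ± 0.52 (adjusted p = 0.0734), and 1.36 (adjusted p = 0.171) without Myd88-null replicate 4. It passed without WT replicate 3 (1.92, adjusted p = 0.0350) and without Myd88-null replicate 1 (1.70, adjusted p = 0.0407). Between arrays of the same S range, double-null minus WT in Id1 was 0.59 for S 1 to 6 and 1.68 for S 7 to 12, with 2 arrays a group in each, and Ager-null minus the lone WT array of S 13 to 20 was -1.70.

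Of the other tested genes, Nr2f6, Coro1b and Cd99 followed Id1 most closely over the 19 arrays, with Pearson r of 0.90, 0.89 and 0.87. Nr2f6 encodes an orphan nuclear receptor, Coro1b an actin-binding coronin and Cd99 a cell adhesion protein. Like Id1, Nr2f6 had its highest mean in double-null (9.97 ± 0.16, SD, n = 4) and its lowest in Ager-null (9.33 ± 0.28, n = 6). This likeness largely follows from the choice by r, which kept the differences between groups, so nothing is read from it. The summed level of 15 liver endothelial markers, 11 of them over log2 4 on all arrays, ran from 12.4 to 12.5 (log2) in double-null, from 11.4 to 12.7 in Ager-null, from 12.1 to 12.3 in WT and from 12.0 to 12.3 in Myd88-null. The sum mostly follows its brightest markers, Clec4g and Fcgr2b, with means of 10.60 and 10.20 in Ager-null beside 10.85 and 10.50 in WT. Taken singly, 9 of the 15 markers had estimates above 0 for Ager-null minus WT, with a median of 0.19. In the comparison of the Id1 call, double-null minus Ager-null, 7 of the 15 were above 0. Their median there was -0.05, beside 0.04 over all tested genes. Ager-null replicate 6, the lowest in Id1 at 5.28, was also the lowest in this sum at 11.4. Its part in the Id1 result is given by the fit without it (1.25, limma adjusted p = 0.0708). In whole liver, fewer cells of a type and less RNA per cell cannot be told apart.

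Id2 and Id3 did not share the order of Id1. Id2 was at 10.26 ± 0.30 (SD, n = 5) in WT, 10.69 ± 0.42 (n = 6) in Ager-null, 10.63 ± 0.41 (n = 4) in Myd88-null and 10.28 ± 0.91 (n = 4) in double-null. The double-null livers fell apart into 11.25 and 10.86 for replicates 1 and 2 (S 5 and 6) and 9.48 and 9.52 for replicates 3 and 4 (S 11 and 12), so this group held both the lowest and the highest of the 19 arrays. A second Id2 probe set had the same split, at 8.45, 7.89, 7.01 and 6.16. The limma estimates for Id2 lay between -0.79 (interaction) and 0.44 (Ager-null minus WT), with adjusted p-values of at least 0.270. Another Id2 probe set stayed at 2.75 or below on all arrays.

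Id3, a close relative of Id1 that shares its targets, was the steadiest of the ID genes across genotypes. Its means were 9.05 ± 0.30 (SD, n = 5) in WT, 8.97 ± 0.36 (n = 6) in Ager-null, 9.18 ± 0.31 (n = 4) in Myd88-null and 9.02 ± 0.13 (n = 4) in double-null. The interval of double-null minus Ager-null in Id3 was -0.34 to 0.44, which does not reach the estimate of 1.46 for Id1. Id4 was over log2 4 on 2 of 19 arrays, at 4.06 in Myd88-null replicate 3 and 4.05 in double-null replicate 1. Its remaining arrays lay at 2.81 to 3.83, and its other probe sets were under log2 4 throughout.

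**Figure D2:**
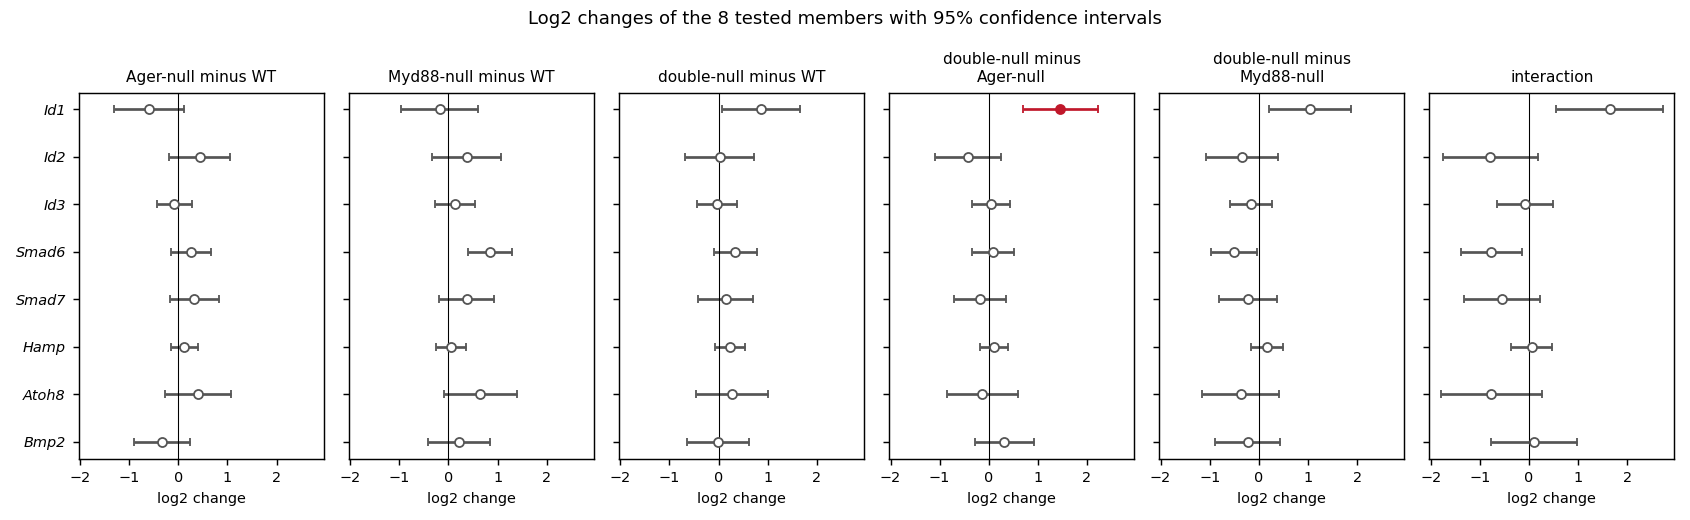
Log2 changes (horizontal axis) of the 8 tested members in 5 comparisons of genotypes and the interaction, with 95% confidence intervals from limma. The filled red point, Id1 in double-null minus Ager-null, is the call at an adjusted p under 0.05, and open points were not called. Smad6 in Myd88-null minus WT has an interval above 0 but an adjusted p of 0.0655. Smad6 met the filter only through Myd88-null, where it was high, so its intervals are descriptions.

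Smad6 encodes the inhibitory SMAD most selective for BMP signals. It read 3.60, 3.74, 3.87, 3.66 and 2.90 in WT and 4.44, 4.75, 4.24 and 4.17 in Myd88-null, so these groups did not overlap. Ager-null ran from 3.35 to 4.32 with a median of 3.84, and double-null read 3.92, 3.81, 4.11 and 3.72. The Myd88-null arrays were the 4 that all passed log2 4, against 0 in WT, 2 in Ager-null and 1 in double-null, so the gene met the filter only through Myd88-null, the group in which it was high. Its values are therefore given as a description, its tests and its lack of overlap support nothing, and its low levels compress any change.

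Myd88-null minus WT in Smad6 was 0.85 ± 0.21 (log2, SE; 95% confidence interval 0.41 to 1.29), with a limma adjusted p of 0.0655. Over all tested genes, groups did not overlap for 4.52% and 0.399% were called, and nothing is read from Smad6 as the 1 of 8 members without overlap. The adjusted p was 0.0436 with the S range as a block (0.87) and 0.0335 without Myd88-null replicate 1 (0.84). Without Myd88-null replicate 4 it was 0.92 (adjusted p = 0.140), without WT replicate 5, the array at 2.90, it was 0.69 (adjusted p = 0.113), and with values under log2 4 set to 4 it was 0.40 (adjusted p = 0.0839). Within S 1 to 6 the difference was 0.93, within S 7 to 12 it was 0.48 and within S 13 to 20 it was 1.27, the last from 1 array each. Double-null was lower than Myd88-null without overlap (-0.51 ± 0.22, adjusted p = 0.290, and -0.58 without Myd88-null replicate 4). With Id1 this made 2 of 8 members without overlap in that comparison, where 5.91% of all genes had none and 0.153% were called. The interaction for Smad6 was -0.77 ± 0.29 (adjusted p = 0.115, and -0.84 without Myd88-null replicate 4), in a comparison where 2.41% of all genes were called.

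Smad7 encodes the inhibitory SMAD that acts on both the BMP and the TGF-beta branch. Its brightest probe set was near the filter, at 3.86 ± 0.56 (SD, n = 5) in WT, 4.18 ± 0.51 (n = 6) in Ager-null, 4.23 ± 0.11 (n = 4) in Myd88-null and 4.00 ± 0.12 (n = 4) in double-null. On this probe set WT and Ager-null were spread widely, from 3.01 to 4.45 and from 3.47 to 4.81. The groups without Myd88 stayed between 3.87 and 4.38. The dimmer Smad7 probe set did not share this contrast in spread. Its SD was 0.23 in WT, 0.50 in Ager-null, 0.41 in Myd88-null and 0.27 in double-null. The limma adjusted p-values for Smad7 were at least 0.335, and its dimmer probe set passed in no comparison either. Smad9, which encodes a BMP signal transducer, stayed at 2.56 or below on all 19 arrays.

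With group means removed, Smad6 and the brightest Smad7 probe set varied together over all arrays, but not in every S range or genotype. Over the deviations of 19 arrays from their group means, Pearson r was 0.84 (permutation p = 0.00045, two-sided, adjusted over 28 pairs of members 0.0126) and Spearman's rho 0.71 (permutation p = 0.00212, adjusted 0.0594). This was the sole pair of the 28 to pass on r, and 0 pairs passed on both measures. Without the 2 arrays farthest from the Smad6 median r was 0.73. The relation was strong for S 13 to 20 (r = 0.97, 8 arrays) and not seen for S 1 to 6 (r = 0.09, 6 arrays), so it did not hold within both ranges. In Myd88-null and double-null this Smad7 probe set varied little (SD 0.11 and 0.12), so the relation comes mostly from WT and Ager-null. The dimmer Smad7 probe set was not compared with Smad6. Both genes lie near the filter at log2 4.

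**Figure D3:**
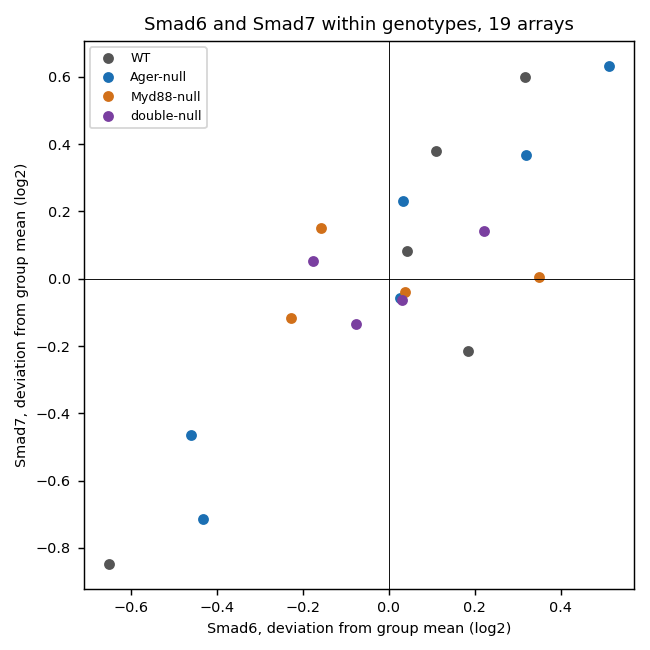
Deviation of each of the 19 arrays from its genotype's mean (log2) for Smad6 (horizontal axis) and the brightest Smad7 probe set (vertical axis), coloured by genotype. The WT and Ager-null arrays stretch along the diagonal and the Myd88-null and double-null arrays lie close to a Smad7 deviation of 0.

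The other pairs were looser. For Id1 and Id3, r was 0.62 (permutation p = 0.0166, adjusted 0.155) and rho 0.44 (p = 0.0958, adjusted 0.671), with 0.37 after leaving out the 2 arrays farthest in Id1. For Id2 and Smad6, r was 0.51 (permutation p = 0.0104, adjusted 0.146) and rho 0.51 (p = 0.0237, adjusted 0.332). Over all 28 pairs r ran from -0.27 to 0.84.

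Hamp, which encodes the iron hormone hepcidin, differed little between genotypes. Its level was 14.02, 14.55, 14.54, 14.26 and 14.52 in WT, ran from 14.04 to 14.71 with a median of 14.57 in Ager-null, and was 14.57, 14.53, 14.54 and 14.10 in Myd88-null and 14.76, 14.59, 14.56 and 14.52 in double-null. All groups overlapped. The widest interval against WT reached 0.53 (double-null minus WT, 0.23 ± 0.15, limma adjusted p = 0.720), and the estimates for Ager-null and Myd88-null were 0.12 ± 0.13 and 0.06 ± 0.15 (adjusted p = 0.622 and 0.855). Without Myd88-null replicate 4, the array at 14.10, Myd88-null minus WT in Hamp was 0.17 (adjusted p = 0.731). The second Hamp probe set gave 0.28, 0.16 and 0.07 for the same 3 comparisons. Mice carry a near-identical hepcidin copy, Hamp2, so reads of these probe sets may mix both.

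Atoh8 encodes a bHLH factor that is induced by BMP and iron in hepatocytes. WT livers lay close together, at 5.33, 4.92, 4.90, 4.71 and 4.95, and the deleted groups were wider, at 4.40 to 6.27 in Ager-null, 4.73 to 6.60 in Myd88-null and 4.60 to 5.64 in double-null. Myd88-null minus WT was 0.65 ± 0.35 (limma adjusted p = 0.315), and 0.31 without Myd88-null replicate 4, the array at 6.60. Bmp2, the endothelial ligand, was at 7.88 ± 0.17 (SD, n = 5) in WT, 7.55 ± 0.67 (n = 6) in Ager-null, 8.10 ± 0.27 (n = 4) in Myd88-null and 7.87 ± 0.56 (n = 4) in double-null. Ager-null replicate 4 read 6.21 against at least 7.67 in the rest of its group, and its endothelial marker sum was 11.7, while Ager-null replicate 6 had a lower sum, 11.4, with Bmp2 at 7.83. Myd88-null minus Ager-null in Bmp2 was 0.55 ± 0.29 (adjusted p = 0.372), 0.28 without Ager-null replicate 4 and 0.63 without Myd88-null replicate 4.

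As a set, the 8 tested members had a median change of 0.19 for Ager-null minus WT, 0.29 for Myd88-null minus WT and 0.19 for double-null minus WT, beside 0.02, 0.06 and 0.07 over all tested genes. Without Myd88-null replicate 4 the members' median for Myd88-null minus WT was 0.30. Smad6 is among the 8, so these medians are descriptions. Of them 5, 7 and 6 were above WT in the same order, where 52.2%, 59.2% and 64.1% of all tested genes were. These comparisons share the WT arrays. In the 3 comparisons not covered above, groups did not overlap for 0 of 8 members, beside 3.7% of all genes for Ager-null against WT, 3.81% for double-null against WT and 3.92% for Myd88-null against Ager-null. Called genes made up 1.26% of all genes for Ager-null against WT, 0.317% for double-null against WT and 1.26% for Myd88-null against Ager-null.

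The wider pathway was read from 8 lists with 104 genes, 97 of them on the array and 64 tested. Of these, 2 rose in Myd88-null against WT, 1 rose in Myd88-null against Ager-null, 1 fell in double-null against Ager-null and 2 had a negative interaction, while 0 were called in the remaining comparisons. Over all tested genes 0.399%, 1.26%, 2.44% and 2.41% were called in these 4 comparisons in that order. In Myd88-null against Ager-null, double-null against Ager-null and the interaction the counts stand near those shares. For Myd88-null against WT 2 of 64 is above 0.399%, but both calls, Crim1 and Il6ra, were lost without Myd88-null replicate 4. All are described as single genes. Crim1, which encodes a membrane protein that binds BMPs and restrains them, rose in Myd88-null by 1.26 ± 0.22 (limma adjusted p = 0.0154). Its mean was 5.02 ± 0.41 (SD, n = 5) in WT, 5.61 ± 0.21 (n = 6) in Ager-null, 6.29 ± 0.42 (n = 4) in Myd88-null and 5.22 ± 0.34 (n = 4) in double-null. Its interaction was -1.66 ± 0.30 (adjusted p = 0.0260). It was the sole call among 6 tested BMP antagonists and decoys. Without Myd88-null replicate 4 the difference from WT was 1.08 (adjusted p = 0.0832) and the interaction -1.48 (adjusted p = 0.0522), so both calls were lost. They were lost too without Myd88-null replicate 2 (adjusted p = 0.0658 and 0.0595), and that of the interaction without Myd88-null replicate 3 (0.0676), double-null replicate 3 (0.0811) or double-null replicate 4 (0.0528). In other settings the difference from WT lost its call with the mean of the probe sets (0.66, adjusted p = 0.0508), quantile normalization (1.10, 0.0502), the replicate block (1.22, 0.0534) and only the 2 groups in the fit (1.26, 0.126). The interaction lost it with a block for the S range (-1.56, adjusted p = 0.142) and with the replicate block (-1.61, 0.0503).

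Bhlhe40 encodes a clock-linked bHLH repressor. It was at 11.18 ± 0.47 (SD, n = 5) in WT, 11.84 ± 0.09 (n = 6) in Ager-null, 12.02 ± 0.32 (n = 4) in Myd88-null and 11.29 ± 0.15 (n = 4) in double-null, with an interaction of -1.40 ± 0.26 (limma adjusted p = 0.0260). Its difference from WT in Myd88-null was 0.85 ± 0.19 and was not called (adjusted p = 0.0529). Of the 4 tested E proteins and other bHLH factors, it alone was called. That call was lost without Myd88-null replicate 2, 3 or 4 or double-null replicate 3 or 4 (adjusted p from 0.0522 to 0.0811), and a block for the S range gave -1.89 (adjusted p = 0.0556).

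Among 12 tested genes that link inflammation to hepcidin, Il6ra, which encodes the IL-6 receptor, rose in Myd88-null against WT (1.55 ± 0.32, limma adjusted p = 0.0353) and against Ager-null (1.28 ± 0.31, adjusted p = 0.0481). Il1r1, which encodes the IL-1 receptor, fell in double-null against Ager-null by 0.93 ± 0.23 (adjusted p = 0.0466). The Il6ra levels in Myd88-null were 5.42, 6.35, 5.57 and 7.17, the last in replicate 4, without which the differences were 1.20 (adjusted p = 0.125) and 0.93 (adjusted p = 0.157). The calls for Il6ra against WT, Il6ra against Ager-null and Il1r1 held in 13, 4 and 5 of the 19 fits without 1 array. Under other settings they held in 6, 6 and 7 of 11. With the mean of its probe sets Il6ra was at 0.81 against WT (adjusted p = 0.0544) and at 0.62 against Ager-null (0.0814), and Il1r1 with the S range as a block was at -1.15 (adjusted p = 0.161). Markers of Kupffer cells and macrophages were read too. In Myd88-null minus WT 11 of 12 had estimates below 0, with a median of -0.71, while 59.2% of all tested genes were above 0. In the interaction 12 of 12 were above 0, with a median of 0.89, beside 48.3% of all tested genes. Their summed level ran from 13.1 to 13.8 in WT, 12.8 to 13.8 in Ager-null, 11.4 to 13.6 in Myd88-null and 13.2 to 13.9 in double-null. The 11.4 is Myd88-null replicate 4, and the rest of its group read 13.6, 13.2 and 13.4, within the WT range. The estimates include that array. In either comparison 0 of the 12 were called in limma. At an unadjusted p under 0.05 there were 2 in each, beside 19.6% and 27.2% of all genes. The part of these markers in the changes of Crim1, Bhlhe40 and Il6ra was not tested. Hamp was not called in any of these comparisons.

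**Figure D4:**
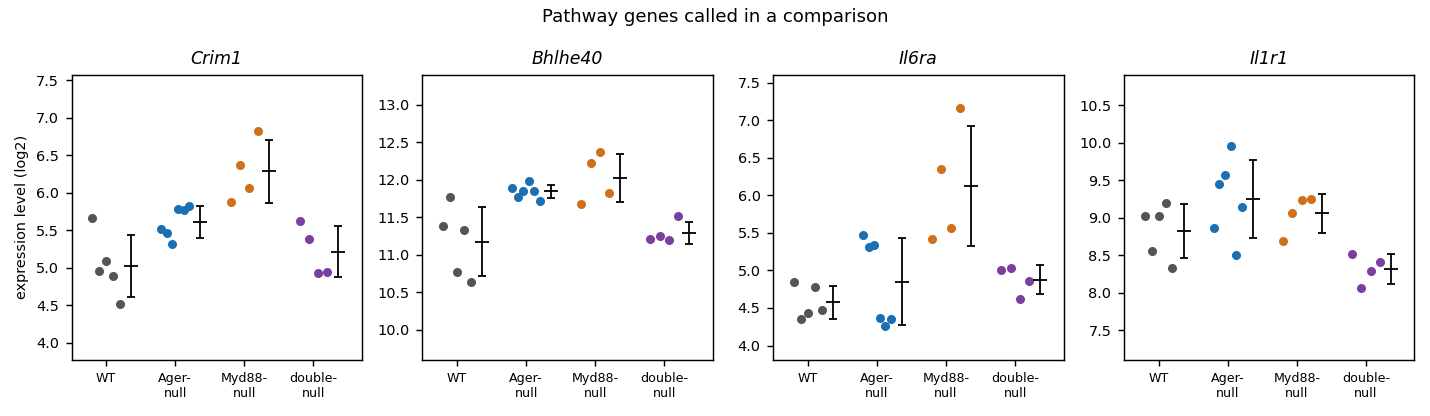
Expression level (log2) of the 4 pathway genes called in a comparison, by genotype. Points are arrays, horizontal marks with bars are the group mean ± SD, and every panel spans 3.8 log2 units. Crim1, Bhlhe40 and Il6ra have their highest mean in Myd88-null, and Il1r1 its lowest in double-null.

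In the other 5 lists 0 genes were called in limma. The list of BMP and GDF genes had 4 tested genes, of which Bmp1 encodes a protease and not a ligand. Among them the smallest p belonged to Bmp1 (Ager-null minus WT, 0.48 ± 0.13, adjusted p = 0.0649) and Bmp4 (1.16 ± 0.39 in the same comparison, adjusted p = 0.112). Among 7 tested receptors and co-receptors it belonged to the type I receptor gene Acvr1 (double-null minus Myd88-null, -0.67 ± 0.18, adjusted p = 0.168) and the type II receptor gene Bmpr2 (interaction, -1.05 ± 0.30, adjusted p = 0.0608). Among 14 SMAD transducers and cofactors it belonged to the ubiquitin ligase gene Nedd4l (Ager-null minus WT, 0.76 ± 0.26, adjusted p = 0.113) and the SMAD repressor gene Ski (interaction, -0.76 ± 0.28, adjusted p = 0.103). Among 6 TGF-beta and activin genes it belonged to the receptor genes Tgfbr1 (Myd88-null minus Ager-null, 0.48 ± 0.16, adjusted p = 0.140) and Tgfbr3 (Ager-null minus WT, 0.62 ± 0.20, adjusted p = 0.103). Among 11 iron handling genes it belonged to the metal transporter genes Slc11a2 (Ager-null minus WT, 0.72 ± 0.20, adjusted p = 0.0688) and Slc39a14 (interaction, -0.92 ± 0.28, adjusted p = 0.0659). In the interaction 27.2% of all tested genes had an unadjusted p under 0.05. So did 2 of 4 BMP and GDF genes, 4 of 7 receptors and 1 of 14 SMAD transducers and cofactors. The same held for 1 of 6 TGF-beta and activin genes and 5 of 11 iron handling genes.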

How the data were processed

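Deposited values are log2 expression levels, 1 for each probe set, and the submitters' processing notes name GCRMA 2.16. RNA was amplified with a 3' IVT kit per the labels' protocols. The sources used here give no other step. The values, from 0.743 to 15.6, were used as deposited.

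Of 45101 probe sets, 64 controls, 932 with several gene symbols and 9160 with none were left out. Each of 18193 genes was represented by its probe set with the highest mean, and 8515 genes over log2 4 on at least 4 arrays were tested. The 4 groups, taken from the sample titles, entered 1 fit in limma 3.58.1 (R 4.3.3; lmFit, eBayes) with 7 two-sided comparisons. Adjusted p-values cover all tested genes of a comparison. The number of arrays limits precision. The labels speak of RNA per mouse, and p-values measure the spread between these arrays. Pairs of members were compared with 100000 permutations within groups (numpy 2.4.6).

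Pathway genes are named if called, and otherwise the 2 with the smallest p of a list. For a called member, the 3 genes with the highest Pearson r are named. The members and lists were chosen with earlier results of these data known. Alternatives covered scaling, filters, probe sets, blocks, the fit and each array left out. The random block was chosen after seeing the data.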

Additional observations from a re-analysis of the deposited data

Results flagged for a closer look

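In each group the highest and lowest array of every member was set against the rest of its group by Dixon's criterion. Of 40 such groups 7 had an array that stood out, where chance gives about 1 in 20. Both WT replicate 5 and Myd88-null replicate 4 stood out in a pair of genes. WT replicate 5 was low in Id2 (9.73) and in Smad6 (2.90). Myd88-null replicate 4, the array least like the others, was low in Id1 (5.90) and in Hamp (14.10), and its Kupffer cell and macrophage marker sum was 11.4 against at least 13.2 in the rest of its group. Ager-null replicate 1 was low in Hamp (14.04) and Ager-null replicate 4 in Bmp2 (6.21). Double-null replicate 1 was low in Id3 (8.83).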

How the results depend on the processing

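For double-null against Ager-null, 1 member (Id1) was called. The count was 0 with median centring, 0 with no filter, 0 with the S range as a block, 0 with the S range as a random block (chosen after seeing the data) and 0 with the replicate block, and it ran from 0 to 1 when single arrays were left out. Id1 was then at 1.40 (adjusted p = 0.0523), 1.46 (0.0662), 1.64 (0.217), 1.47 (0.0580) and 1.36 (0.0634). For Myd88-null against WT the count rose from 0 to 1 (Smad6) with the S range as a block and ran from 0 to 1 without single arrays, as it did for the interaction (Id1). In the other 4 comparisons it was 0 throughout. Of 1686 alternative values of the 56 member changes, 1663 kept their side of the threshold, 19 lost it, 4 gained it and 0 called values changed sign, while 65 uncalled values did. In the fit with the replicate block no further member call changed, while Crim1 (both calls) and Il6ra (both calls) lost theirs and Bhlhe40 and Il1r1 kept theirs. The replicate numbers are not known to pair the arrays. Of 18 arrays with a shared number, 3 were closest in deviations to an array of another group with their own number. The deviations of same-numbered arrays correlated over 0.1 in 9 of 25 pairs, within a range of -0.30 to 0.47. No rate for differently numbered arrays was taken, so pairing was not decided. Calls over all genes moved more: between 91 and 302 under other settings and 18 and 368 without 1 array for double-null against Ager-null (208), 3 to 16 and 2 to 446 for double-null against Myd88-null (13), 20 to 46 and 18 to 34 for double-null against WT (27), 33 to 132 and 16 to 403 for Ager-null against WT (107), 28 to 386 and 30 to 179 for Myd88-null against Ager-null (107), 7 to 86 and 10 to 987 for Myd88-null against WT (34), and 0 to 279 and 0 to 1739 for the interaction (205). The highest counts for Myd88-null against WT and the interaction came without Myd88-null replicate 1, and the interaction had 0 called genes with the S range block and without Myd88-null replicate 3 or 4 or double-null replicate 3. Smad6, Smad7, Id4 and Smad9 lie near or under log2 4, where changes are compressed.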
